A study of Mus musculus with 6 samples.

Results

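Gpcpd1 encodes a phosphodiesterase that splits glycerophosphocholine, a breakdown product of phosphatidylcholine, into choline and glycerol-3-phosphate. It is described here in mouse liver together with 9 genes that use or remove choline and ethanolamine: Chka, Chkb, Etnk1, Etnk2, Pcyt1a, Pcyt2, Chpt1, Cept1 and Chdh. These 10 of the 22911 genes named on the array were read by 19 of its 56605 probes, taken as every non-control probe whose RefSeq accession belonged to one of them. The group was chosen because Gpcpd1 was lower in soy-fed livers in these same data. Its own difference is therefore given as a description with no test, whereas the other 9 genes were tested. Those 9 were also listed with earlier results of these data known.

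Livers came from 6 male mice that were 12 weeks old at the start of the diets and were killed on day 28. The 3 control mice received regular food only (100%), and the 3 soy mice received a diet of 75% regular food and 25% soy bean, both for 28 days. RNA of each mouse was labelled with Cy3 and read on 1 Agilent mouse array. The mice of the 2 groups differed in diet only as far as the labels state, no strain is given in them, and each mouse is 1 replicate (n = 3 in each group throughout).

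In liver, choline is phosphorylated by choline kinase, activated to CDP-choline by a CTP-using enzyme and joined to diacylglycerol to give phosphatidylcholine, the main phospholipid of membranes, lipoproteins and bile. Ethanolamine follows a parallel route to phosphatidylethanolamine, part of which hepatocytes methylate to phosphatidylcholine. Choline that is not used in this way is oxidised to betaine, a methyl donor for homocysteine, and choline is recovered from phosphatidylcholine through lysophosphatidylcholine and glycerophosphocholine.

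Of 59305 non-control spots, 37010, 36366 and 38163 were well above background on control arrays 1, 2 and 3, and 31308, 31988 and 32498 on soy arrays 1, 2 and 3. The share was thus 61.3% to 64.4% in control and 52.8% to 54.8% in soy, without overlap between the groups, and its part in the results below was not tested. All 19 probes of the 10 genes were well above background on all 6 arrays, and no spot was saturated.

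Gpcpd1 was lower in soy on each of its 3 probes, by 3.78-fold to 5.16-fold. On the brightest probe (A_55_P2497738, transcript NM_028802) its normalized log2 signal was 12.43, 12.59 and 12.41 on control arrays 1 to 3 and 10.36, 10.23 and 9.74 on soy arrays 1 to 3. All soy values lay below all control values, and the group means of 12.48 ± 0.10 and 10.11 ± 0.33 (SD) differed by -2.37 (log2), a 5.16-fold lower signal in soy. In bulk liver RNA, fewer cells of a type and less RNA per cell cannot be told apart.

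The other 2 probes, both matched to transcript NM_001042672, gave the same order of groups. Probe A_55_P1976351 read 11.06, 11.53 and 11.05 in control and 9.05, 9.52 and 8.85 in soy (log2), a difference of -2.07 or 4.21-fold. Probe A_52_P384069 read 10.08, 10.39 and 10.16 in control and 8.34, 8.38 and 8.14 in soy, a difference of -1.92 or 3.78-fold. On all 3 probes control 2 was the highest array and soy 3 the lowest, and the groups did not overlap on any.

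The difference was present before any background correction or scaling. The deposited median intensity of the brightest Gpcpd1 probe was 6756.5, 6334 and 5179 in control and 1283, 1043 and 865 in soy, so that the control mean was 5.73 times the soy mean. The corresponding ratios were 4.66 and 4.02 for the other probes. Slide 1 held control 1, control 2 and soy 1, and slide 3 held control 3 and soy 3, whereas soy 2 was alone on slide 2. Within slide 1 the difference of the brightest probe was -2.15 and within slide 3 it was -2.67, and with slide as a block it was -2.37.

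**Figure D1:**
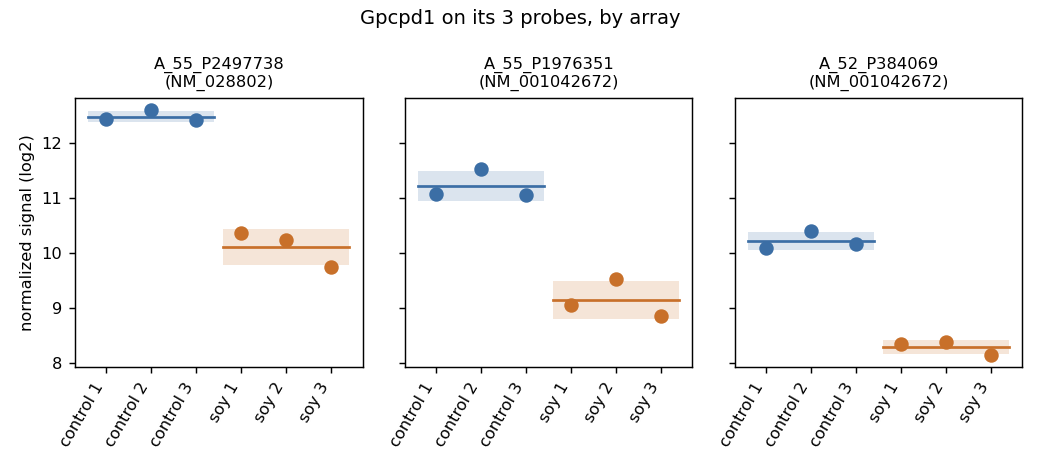
Normalized signal (log2, vertical axis) of the 3 Gpcpd1 probes on each of the 6 arrays, with 1 panel for each probe, points for single arrays, lines for group means and bands for 1 SD. In every panel the 3 soy points lie below the 3 control points, and on the brightest probe the means are 12.48 and 10.11.

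Among the 22911 genes, each taken by its brightest probe, 17 had a larger fall in mean signal than Gpcpd1, and 13 among the 13514 genes well above background on all 6 arrays. A probe was counted as passing where its adjusted p was under 0.05 and its fold change under 0.66 or above 1.5. On the whole array 198 of 56605 probes passed (0.35%), with 0.208% higher and 0.141% lower in soy. Counted by gene, 44 genes (0.192%) were lower and 78 genes (0.34%) higher. By brightest probe, the groups did not overlap in 20.5% of genes, and 10.8% of genes had all soy values below all control values. Because Gpcpd1 was chosen for this difference, nothing is read from its place among them.

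None of the other 9 genes passed those thresholds on any of 16 probes, the smallest adjusted p in limma being 0.141, against 0.532% of all genes that passed in either direction. Without adjustment, 5 of the 9 had a p under 0.05 by brightest probe, against 14.2% of all genes and 20.1% of those well above background on all arrays. Because the 9 were listed with earlier results of these data known, this count and those below are descriptions. The difference of the brightest probe was above 0 in 8 of the 9 and below 0 in Etnk2 only, although the small one of Pcyt2 was -0.021 and -0.023 with the 2 scalings to the 75th percentile of each array. The median difference over the 9 was 0.28 (log2), beside -0.0057 over all genes. Chkb, Pcyt1a and Chpt1 had all soy values above all control values (3 of 9, against 9.68% of all genes and 13.3% of those well above background on all arrays), no gene had the reverse by its brightest probe, and in 6 the groups overlapped.

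Choline kinase is encoded by Chka and Chkb. Chka read 10.02, 9.48 and 10.21 in control and 9.65, 10.11 and 10.79 in soy on its brightest probe (log2). These ranges overlapped, with soy 3 the highest of all arrays on each of the 3 Chka probes. The difference was 0.28 (95% interval -0.42 to 0.98, adjusted p = 0.775 in limma), and it was -0.026 without soy 3. The 2 dimmer probes differed by 0.25 and 0.54, with adjusted p = 0.762 and 0.433 in limma.

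Chkb was measured by 1 probe, which read 11.70, 11.68 and 11.81 in control and 12.12, 11.95 and 11.93 in soy (log2). The lowest soy array lay above the highest control array, though by little. The difference was 0.27 (SE 0.10, 95% interval 0.03 to 0.50), and it did not pass (unadjusted p = 0.0317, adjusted p = 0.376 in limma). Within slide 1 it was 0.42 and within slide 3 it was 0.12.

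Ethanolamine kinase, the first step of the parallel route, is encoded by Etnk1 and Etnk2. Etnk1 differed by 0.27 on its brighter probe and by -0.11 on the other, both with overlapping groups (adjusted p = 0.559 and 0.837 in limma), and without soy 3 the brighter probe differed by 0.12. After Gpcpd1, Etnk2 had the lowest soy mean relative to control among the 10 genes. Its brighter probe read 15.28, 15.57 and 14.75 in control and 14.78, 14.14 and 14.14 in soy (log2), so that soy 1 was just above control 3. Its other probe read 11.93, 12.01 and 11.26 in control and 11.18, 10.62 and 10.36 in soy, without overlap.

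The Etnk2 differences were -0.85 (SE 0.25, 95% interval -1.43 to -0.27, adjusted p = 0.251 in limma) and -1.01 (SE 0.26, adjusted p = 0.186). Control 3 was the lowest control array on both probes. Soy 3, which shared its slide, was the lowest soy array on the dimmer probe. On the brighter probe soy 2 and soy 3 were level at 14.14 (log2). In the deposited median intensities of that probe soy 2 was the lower, at 15331 beside 18045.5 in soy 3. On the brighter probe the difference was -0.65 within slide 1 and -0.61 within slide 3. With slide as a block it was -0.63, with an adjusted p of 0.250 in limma.

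The next enzymes use CTP to activate phosphocholine (Pcyt1a, generally taken as the rate-setting enzyme of the CDP-choline route) and phosphoethanolamine (Pcyt2). Pcyt1a read 12.76, 13.03 and 12.98 in control and 13.61, 13.38 and 13.38 in soy on its only probe (log2). All soy arrays were above all control arrays, with soy 1 the highest. The difference was 0.53 (SE 0.12, 95% interval 0.26 to 0.81), a fold change of 1.45 with an unadjusted p of 0.00242 and an adjusted p of 0.141 in limma. Within slide 1 it was 0.71, and within slide 3 it was 0.40.

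Pcyt2, also with 1 probe, read 16.78, 16.54 and 16.54 in control and 16.63, 16.72 and 16.62 in soy (log2), with all soy arrays inside the control range. The difference of 0.038 had a 95% interval of -0.21 to 0.29 (adjusted p = 0.925 in limma).

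The last step is carried out by Chpt1, which makes phosphatidylcholine, and by Cept1, which accepts both CDP-choline and CDP-ethanolamine. Chpt1 read 12.69, 12.47 and 12.95 in control and 13.62, 13.13 and 13.53 in soy on its brighter probe (log2). The groups did not overlap on either of its probes, and control 2 and soy 2 were the lowest arrays of their groups on both. The differences were 0.72 (SE 0.17, 95% interval 0.33 to 1.12) and 0.46 (SE 0.15), with adjusted p = 0.156 and 0.292 in limma.

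The difference of the brighter Chpt1 probe was 1.04 within slide 1 and 0.58 within slide 3. With the background-subtracted processed signal and 75th percentile scaling, in place of the corrected median signal and quantile normalization, it was 0.73 and passed (adjusted p = 0.0466 in limma). Those 2 changes together gave 13138 passing probes on the array, 90.8% of them higher in soy, in place of 198 with 59.6% higher, and a median of all probes of 0.125 (log2). The 75th percentile scaling of the median signal alone gave 299 passing probes, 67.6% of them higher, and a median of 0.134. In the deposited median intensities of this probe, control 1 at 8169 was above soy 2 at 7602.5. Cept1 read 13.34, 13.22 and 13.43 in control and 13.39, 13.57 and 13.89 in soy, with overlap, a difference of 0.29 (adjusted p = 0.508 in limma) that was 0.15 without soy 3.

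Choline dehydrogenase, the mitochondrial enzyme encoded by Chdh, takes choline out of the phospholipid route towards betaine. Its brightest probe read 11.15, 11.43 and 11.10 in control and 11.64, 11.66 and 11.36 in soy (log2), so that soy 3 lay below control 2. Another probe gave 9.84 ± 0.14 (SD) in control and 10.31 ± 0.046 in soy, without overlap. The differences were 0.33 (SE 0.13) and 0.47 (SE 0.11), with adjusted p = 0.411 and 0.146 in limma, and that of the dimmest probe was 0.16 (adjusted p = 0.639). None passed.

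**Figure D2:**
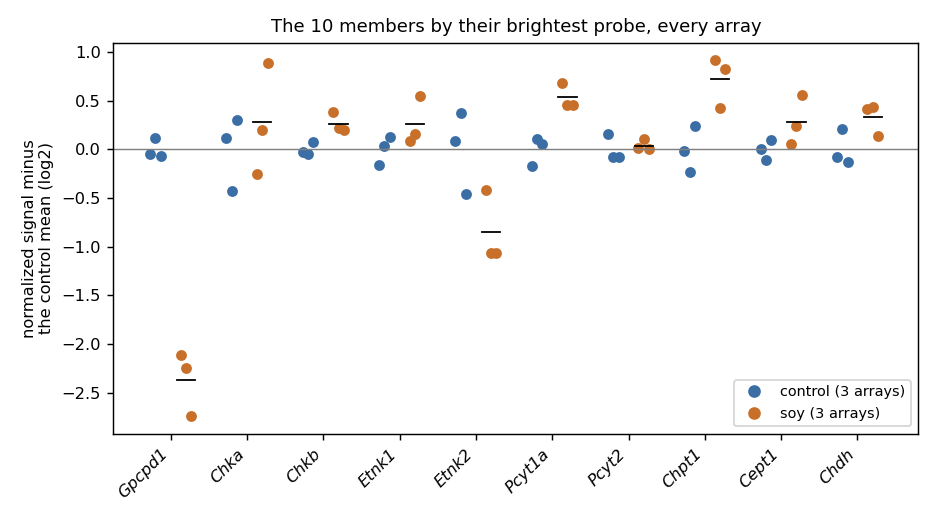
Normalized signal of the brightest probe of each of the 10 genes on every array, as the difference from that gene's control mean (log2, vertical axis), with blue points for the 3 control arrays, orange points for the 3 soy arrays and a black line for the soy mean. Gpcpd1 stands at -2.37 and Etnk2 at -0.85, and the other soy means lie between 0.038 and 0.72.

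**Figure D3:**
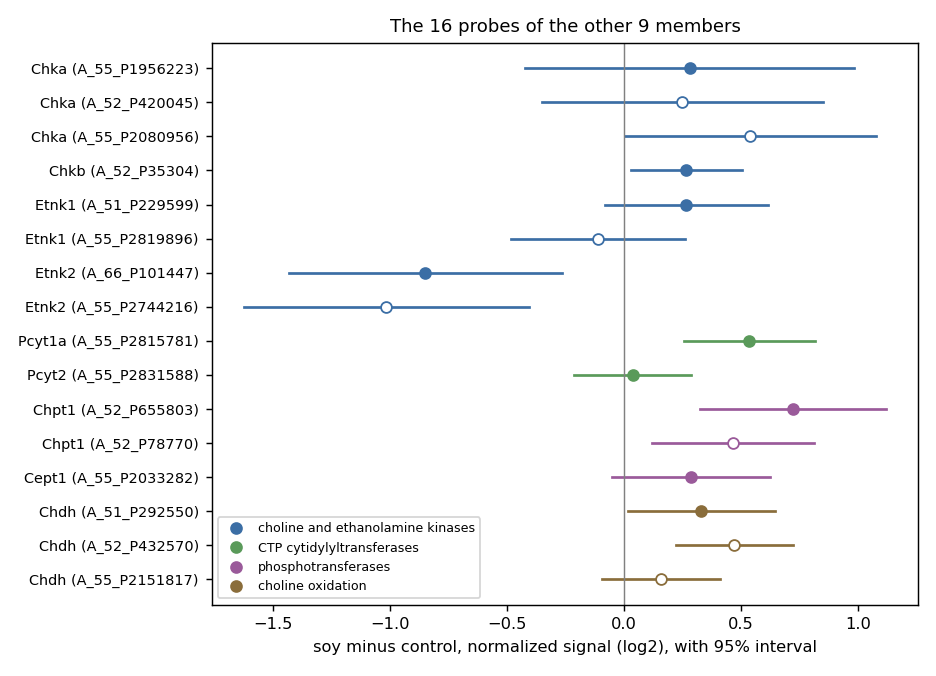
Difference between soy and control (log2, horizontal axis) for the 16 probes of the 9 genes other than Gpcpd1, with 95% intervals from limma, filled points for the brightest probe of a gene and colours for the step. In 13 of the 16 probes the difference is above 0, and the 3 below 0 belong to Etnk1 and Etnk2.

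The spread among control mice also differed between the genes. The control SD of the brightest probe ran from 0.069 (log2) in Chkb to 0.42 in Etnk2. The SE of the difference, which also depends on the soy arrays, was 0.10 in Chkb, 0.25 in Etnk2 and 0.30 in Chka. Of the 16 probes, 5 had all soy values above all control values and 1 had the reverse, against 9.44% and 10.1% of all probes with a gene symbol. All 16 were well above background on all arrays. Among genes in that state, by brightest probe, the shares were 13.3% and 12.3%. In the remaining 10 probes the groups overlapped. Among the genes with overlap, the brightest-probe difference within slide 1 and within slide 3 was -0.10 and 0.59 in Chka, 0.15 and 0.42 in Etnk1, and 0.11 and 0.46 in Cept1.

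A wider list of 66 other genes of choline, ethanolamine and phosphatidylcholine metabolism was read by 94 probes. It too was drawn up with earlier results of these data known. No gene passed in either direction on any probe (0 of 66, smallest adjusted p = 0.0558 in limma), against 0.532% of all genes. By brightest probe, 12 had an unadjusted p under 0.05, against 14.2% of all genes and 20.1% of those well above background on all arrays. The difference was above 0 in 38 genes and below 0 in 28, with a median of 0.037 (log2), beside -0.0057 over all genes. The groups were apart with soy higher in 10 genes and with soy lower in 7, against 9.68% and 10.8% of all genes. Among genes well above background on all arrays these shares were 13.3% and 12.3%. Of the 66 genes, 50 were well above background on all arrays and 9 on none, among them the neuronal choline transporter gene Slc5a7 and Pcyt1b, a paralogue of Pcyt1a.

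The smallest adjusted p of the list belonged to Etnppl, whose enzyme breaks down phosphoethanolamine and so draws on the product of ethanolamine kinase. It read 14.00, 13.76 and 13.22 in control and 14.82, 15.02 and 14.85 in soy on its brighter probe (log2). All soy arrays were above all control arrays, and control 3 was the lowest. The difference was 1.24 (SE 0.19, 95% interval 0.79 to 1.69), a 2.36-fold higher mean signal that missed the threshold at an adjusted p of 0.0558 in limma.

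The other Etnppl probe differed by 1.13 (SE 0.21, adjusted p = 0.0942 in limma), also without overlap. On the brighter probe the difference was 0.94 within slide 1, 1.62 within slide 3 and 1.23 with slide as a block (adjusted p = 0.163 in limma). It passed without control 3, at 1.03 and an adjusted p of 0.0483. It also passed with the trend and robust settings of limma (adjusted p = 0.0414) and when only probes well above background in a group were tested (adjusted p = 0.0287). Phospho1, whose product acts on phosphocholine and phosphoethanolamine, differed by 0.033 and was well above background on 3 control arrays and 1 soy array.

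Lysophospholipases and glycerophosphodiesterases act on lysophospholipids and on glycerophosphodiesters such as glycerophosphocholine, the substrate of Gpcpd1. Of these, 13 genes were measured, and 9 were well above background throughout. Pnpla7, a lysophospholipase that yields glycerophosphocholine, read 13.98, 13.76 and 13.75 in control and 13.29, 13.38 and 13.18 in soy (log2). Gdpd1, a lysophospholipase D that removes the head group of lysophospholipids and so does not yield glycerophosphocholine, read 8.46, 8.30 and 8.37 in control and 8.84, 8.78 and 9.35 in soy. The groups did not overlap in either gene, and they lay in opposite directions. The difference was -0.55 (SE 0.11) in Pnpla7 and 0.61 (SE 0.16) in Gdpd1, with adjusted p = 0.109 and 0.195 in limma.

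Among 8 phospholipases, Pla2g6, a calcium-independent phospholipase A2, differed by 0.72 (SE 0.22) on its brighter probe without overlap and by 0.62 on the other with overlap, and Pld2 by 0.33, none of them passing (adjusted p = 0.266, 0.359 and 0.458 in limma). Among 9 lysophospholipid acyltransferases, Lpcat3, which adds polyunsaturated chains to lysophosphatidylcholine, differed by 0.34 without overlap and Lpgat1 by 0.25 with overlap (adjusted p = 0.421 and 0.472 in limma). Without soy 1 the Lpcat3 difference was 0.21. On the dimmer probes Lpcat3 differed by 0.50 and Lpgat1 by 0.29, both without overlap (adjusted p = 0.241 and 0.449 in limma). The dimmer Pld2 probe differed by -0.029 and was well above background on 1 array.

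Abcb4, which moves phosphatidylcholine into bile, was the member with the largest difference among 5 genes of transfer and export. It read 14.90, 14.74 and 15.12 in control and 15.31, 15.49 and 15.42 in soy (log2). The soy arrays were close together and above every control array, on this probe and on a second. The differences were 0.49 (SE 0.13) and 0.69 (SE 0.14), with adjusted p = 0.184 and 0.119 in limma. Pltp, the plasma phospholipid transfer protein gene, differed by -0.34 with control 1 at 12.68 and the other control arrays at 11.07 and 11.04, and by 0.20 without control 1.

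In the phosphatidylserine and methylation route, Pisd differed by 0.37 and Ptdss2 by -0.30 on their brighter probes without overlap (adjusted p = 0.314 and 0.322 in limma), but by 0.091 and -0.020 on their other probes, with overlap. In the betaine branch, Bhmt, which passes a methyl group from betaine to homocysteine, differed by -0.40 and Dmgdh, the next enzyme, by -0.32, both without overlap (adjusted p = 0.449 and 0.385 in limma). Without soy 3 these were -0.20 and -0.21. The other Bhmt probe differed by -0.53, also without overlap (adjusted p = 0.419 in limma). Selenoi, the ethanolamine phosphotransferase gene, differed by 0.45 with overlap, by 0.15 without control 1 and by 0.27 without soy 3, and its other probe differed by 0.43 with overlap.

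For choline uptake, the groups overlapped in all 11 genes, with Slc44a1, a choline transporter-like gene, at -0.36 (adjusted p = 0.659 in limma), and at -0.11 without control 1, -0.18 without soy 2, -0.56 without control 3 and -0.57 without soy 1. Its other probes differed by -0.055 and 0.033. Among 7 sphingomyelin genes the largest differences were -0.39 in Smpd3 and 0.19 in Smpd2, both neutral sphingomyelinase genes. Smpd3, well above background on 3 control and 2 soy arrays, was at -0.19 without control 2, -0.22 with 75th percentile scaling and -0.75 with the processed signal under that scaling, and its other probe differed by -0.35 with overlap. Smpd2 was at 0.046 without control 1 and 0.33 without control 3. None of these genes passed.

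Within single slides, where each group has 1 or 2 arrays, several of these differences moved by over 1.5 times. Pla2g6 was at 1.25 within slide 1 and 0.18 within slide 3, Pld2 at 0.096 and 0.72, Lpcat3 at 0.62 and 0.19, Smpd2 at 0.46 and -0.097, and Slc44a1 at -0.15 and -0.017. Within slide 1, Pisd was at 0.59 and Lpgat1 at 0.40. Within slide 3, Bhmt was at -0.74, Gdpd1 at 0.98, Abcb4 at 0.30 and Smpd3 at -0.18.

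**Figure D4:**
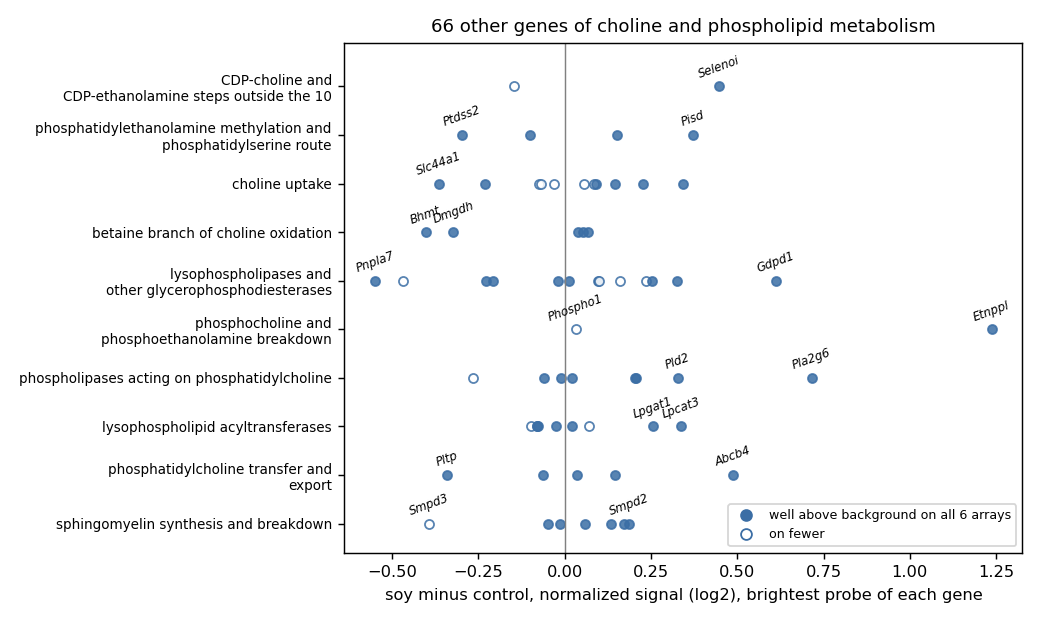
Difference between soy and control (log2, horizontal axis) for the brightest probe of 66 other genes of choline and phospholipid metabolism, grouped by role, with filled points for genes well above background on all 6 arrays. Etnppl stands apart at 1.24, and the others lie between -0.55 and 0.72.

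The genes whose 6-array profile was closest to that of the brightest Gpcpd1 probe were sought among the genes well above background on all arrays. Gpcpd1 itself and genes that had lost a value to an outlier spot were left out, which left 13498. Likeness was the root mean square difference between profiles after each was centred on its own mean. It is a description over 6 arrays that fall into the 2 diet groups, so any gene with a difference of similar size scores well, and it carries no test. The closest was Adgrf1, an adhesion G protein-coupled receptor gene, at 0.249 (log2). The 2 other Gpcpd1 probes lay at 0.252 and 0.259 from the brightest by the same measure.

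After Adgrf1 came the neutral amino acid transporter gene Slc43a1 at 0.322, the cytosolic aspartate aminotransferase gene Got1 at 0.355, the glycolytic regulator gene Pfkfb3 at 0.407 and the transducin gene Gnat1 at 0.415. The differences in signal were -2.62 in Adgrf1, -1.76 in Slc43a1, -2.21 in Got1, -2.83 in Pfkfb3 and -1.74 in Gnat1. With the mean over a gene's probes in place of the brightest probe, Slc43a1 was at -0.995 and Pfkfb3 at -1.70. Soy 3 was the lowest array for Slc43a1, Got1 and Gnat1, as it was for Gpcpd1, and soy 2 for Adgrf1 and Pfkfb3. Among the choline and phospholipid genes the closest profiles were those of Etnk2 at 0.802 (rank 128), Pnpla7 at 0.929 (rank 361) and Bhmt at 0.989 (rank 658).

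**Figure D5:**
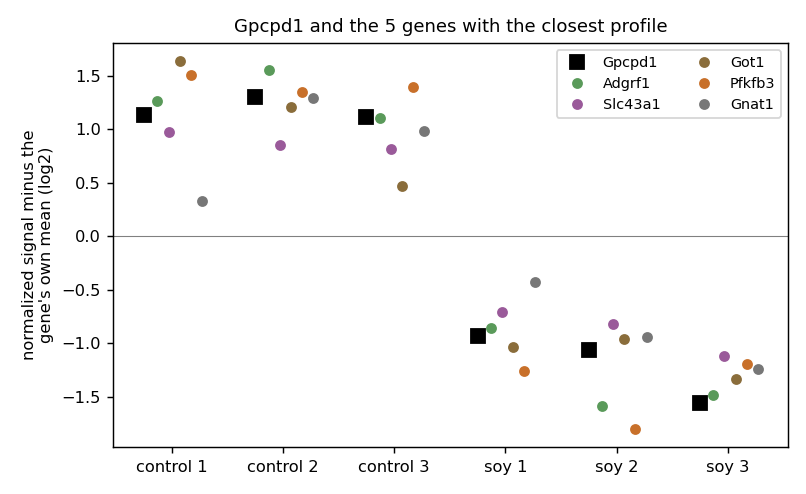
Normalized signal minus each gene's own mean over the 6 arrays (log2, vertical axis) for Gpcpd1 (black squares) and the 5 genes with the closest profiles (coloured points), by array. All 6 genes lie above 0 on the 3 control arrays and below 0 on the 3 soy arrays.

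Markers of the cell types a liver sample could hold were read on the same arrays. No marker gene passed in any of 9 lists, against 0.532% of all genes. All 8 hepatocyte markers were well above background on all arrays, with Alb, the albumin gene, the brightest, and their summed signal was 20.84, 20.88 and 20.91 in control and 20.80, 20.78 and 20.71 in soy (log2). It was lower in soy without overlap, and the ratio of the group means was -0.11 (log2). Taken singly by brightest probe, 7 of the 8 markers overlapped between the groups. The part of the summed signal in the differences above was not tested.

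The 5 pancreatic markers, with Ctrb1 the brightest, summed to 11.84, 12.20 and 11.90 in control and 11.39, 11.48 and 11.36 in soy (log2), also without overlap, and Cela2a, picked after its values were seen, had the largest difference (-1.21, adjusted p = 0.0724 in limma). Of these markers 3 of 5 were well above background on all arrays, and their part in the differences above was not tested either. The collagen genes Col1a1 and Col3a1 of the stellate cell list, also picked after their values were seen, differed by -0.997 and -0.937 without overlap on their brightest probes (adjusted p = 0.318 and 0.271 in limma), and their part was not tested. Control 1 was the highest array for both, and without it, a setting added after seeing the data, the differences were -0.60 and -0.66. The summed signals of Kupffer cell, endothelial, stellate, cholangiocyte, blood, skeletal muscle and adipocyte markers overlapped between the groups. By brightest probe, the difference was below 0 in 7 of 8 stellate, 6 of 8 hepatocyte, 5 of 5 pancreatic and 5 of 5 adipocyte markers, and above 0 in 7 of 8 Kupffer cell and 7 of 8 blood cell markers. Endothelial, cholangiocyte and skeletal muscle markers were evenly divided. The brightest genes of the Kupffer cell, endothelial, stellate, cholangiocyte, blood, skeletal muscle and adipocyte lists were Cd5l, Clec4g, Dcn, Spp1, Hba-a1, Tnnt3 and Fabp4. Epcam, Ckm, Myh4, Adipoq and Plin1 were well above background on no array.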

How the data were processed

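Livers of 3 control and 3 soy mice were each hybridised to 1 array. The authors deposited Feature Extraction 11.5.1.1 output, which holds for each spot a median intensity (uncorrected and unscaled), the local background's median intensity, a processed signal after background subtraction, and quality marks. The deposited table of log2 values differed from the values used here by 0.0705 at most, and its array medians were 7.33 to 7.34.

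Median intensities were corrected by normexp with an offset of 50 and, after removal of control spots, quantile normalized and put on the log2 scale. Outlier spots were dropped, and repeated spots were averaged by probe. The 56605 probes were fitted with limma 3.58.1 in R 4.3.3, and p-values were adjusted by Benjamini-Hochberg across the array. Passing required an adjusted p below 0.05 together with a fold change over 1.5 or below 0.66, and a single passing probe was enough for its gene. The brightest probe (highest mean signal) stands for a gene, with other probes named as such. RefSeq accessions named 32994 probes (58.3%) through a GRCm38.p6 table. Positions are left out because the array uses another build. The number of arrays limits the precision of every value. The fit was tested on simulated data. Python 3.11.15, pandas 2.3.3 and matplotlib 3.10.9 were used for tables and plots.

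The 10 genes, the wider list and the marker lists were chosen with earlier results of these data known. Named were the 10 genes, list genes that passed, for each role the 2 largest differences among genes detected on every array of either group, the 5 profiles closest to Gpcpd1 and the brightest marker of each cell type. A gene that this rule names is not reported here. Alternatives changed the background correction, signal, scaling, dim probes, outlier spots, moderation, slide, replicate pairing, threshold, probes of a gene and single arrays.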

Additional observations from a re-analysis of the deposited data

How the results depend on the processing

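The Gpcpd1 difference was negative in all 21 alternatives, between -2.67 (within slide 3) and -2.12 (mean of its probes), and -2.50 to -2.18 when 1 array was left out. The number of probes passing on the whole array, 198, depended strongly on the setting: 77 with offset 16, 13138 with the processed signal and 75th percentile scaling together, 299 with 75th percentile scaling of the median signal alone, 496 with only probes well above background, and 25 with slide as a block. Leaving out 1 array gave 26 to 208 (103, 78 and 208 without control 1, 2 and 3, and 48, 26 and 29 without soy 1, 2 and 3). With the processed signal scaled that way and with that scaling alone the median of all probes was 0.125 and 0.134 (log2) above 0, and the share of passing probes that were higher was 90.8% and 67.6%. Between control and soy arrays of the same replicate number, the correlations of deviations were 0.12, -0.061 and 0.097 for numbers 1, 2 and 3. The arrays of numbers 1 and 3 also shared a slide, so number and slide cannot be told apart there. Control 2 was closest to soy 1, on its own slide, at 0.078. Across slides the correlations ran from -0.206 to 0.105. A replicate block gave 78 probes and no pass among the 9 genes or on the wider list.

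Among the 9 genes other than Gpcpd1, 1 passed with the scaled processed signal (Chpt1, in a setting that passed 25.7% of all genes) and 0 under each other setting, 0 to 0 when 1 array was left out. On the wider list 10 of 66 passed with the scaled processed signal, a smaller share than the 25.7% of all genes, and of these Abcb4, Etnppl and Pnpla7 were well above background on all arrays. Etnppl alone, 1 gene, passed with only probes well above background, with the trend and robust settings and without control 3 (2.06%, 0.803% and 0.585% of all genes tested passed there), so that leaving out 1 array gave 0 to 1. The following differences changed sign in at least 1 setting. Chka was -0.10 within slide 1 and -0.026 to 0.55 when 1 array was left out. Pcyt2 was -0.021 with the scaled processed signal, -0.023 with the 75th percentile scaling alone, -0.029 within slide 1 and -0.0036 to 0.12 when 1 array was left out (lowest without control 2, highest without control 1). Pltp was 0.019 with slide as a block, 0.12 within slide 3 and -0.62 to 0.20 when 1 array was left out (0.20 without control 1). Phospho1 was -0.17 with slide as a block, -0.12 within slide 1, -0.25 within slide 3 and -0.15 to 0.15 when 1 array was left out. Its highest value over 18 settings was 0.25, beside 0.033 in the main fit. Within slide 3, Smpd2 was -0.097. The causes were not tested. Naming probes by a gene name column was not run. The 95% intervals given beside the genes show the precision that 3 arrays a group allow, and a gene that missed the threshold is not shown to be equal between the diets.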
